A study of Mus musculus with 8 samples.

Results

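The chemokine ligand genes are a set of 34 genes that encode the secreted or membrane-bound chemokines of the mouse, listed by symbol with Cxcl12 left out. They were chosen as a gene family, not by their values, from the 32245 gene symbols of the periosteal single-cell data, and 33 of the 34 had a row in the gene list. Cxcl11 was not analysed here. The cells came from the left femurs and tibias of male C57BL/6J mice that were 16 weeks old, without a transgene or a deletion in either group. The normal diet (ND) group was kept on chow, and the high-fat diet (HFD) group received HFD for 12 weeks from 4 weeks of age. The labels list 4 mice per diet, but 1 count matrix holds the pooled cells of each diet, and its barcodes carry no mouse. Each diet is therefore 1 library, no difference between diets has a replicate check, and no test between diets was made.

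The UMI, a molecular tag counted once per captured RNA molecule, was the unit of all values. As the chemistry counts 3′ ends, a level does not grow with transcript length. Levels are UMIs per 1000000 UMIs of a cell class. Their 95% intervals are exact Poisson intervals and reflect counting error alone. After the cell filter (more than 500 and fewer than 8000 genes and under 20% mitochondrial UMIs), 6029 ND and 6224 HFD cells remained, with a median of 4610 and 4824 UMIs per cell. The 33 genes held 167842 of 48106513 ND UMIs (0.349%) and 148383 of 49411888 HFD UMIs (0.300%). Cell classes were named from marker lists and end in "-like". The fibroblast-, tenocyte- and osteoblast-like cells that a periosteal sample should contain made up 6.78% of ND and 10.8% of HFD cells, and most other cells carried markers of blood lineages, with mature neutrophil-like cells at 24.1% and 23.5%.

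Chemokines are small proteins that bind to G protein-coupled receptors on leukocytes and other cells and steer where those cells move. The CC and CXC families are named from the spacing of their first conserved cysteines, and the C and CX3C families have few members. Some ligands are made constitutively and place cells in tissues, such as Ccl19 and Ccl21a, and others are switched on by inflammatory signals through NF-kB or interferon pathways, such as Cxcl1, Cxcl2 and Cxcl10. In bone and marrow, chemokines are known for the retention and release of neutrophils and monocytes.

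The promoters of 4 inducible CXC genes are shown because 3 of them, Cxcl1, Cxcl2 and Cxcl3, are neighbours of which Cxcl1 was highest in another class than Cxcl2 and Cxcl3, and because Cxcl10 carries the binding motifs of both pathways. Each sequence is the 250 bases before the RefSeq start site in GRCm38.p6, 5′ to 3′ on the gene's strand. They lie at chr5:90890995-90891244 (+, Cxcl1), chr5:90903649-90903898 (+, Cxcl2), chr5:90785851-90786100 (+, Cxcl3) and chr5:92348890-92349139 (-, Cxcl10). Capitals mark matches to the kappaB consensus and to the interferon-stimulated response element.
Cxcl1: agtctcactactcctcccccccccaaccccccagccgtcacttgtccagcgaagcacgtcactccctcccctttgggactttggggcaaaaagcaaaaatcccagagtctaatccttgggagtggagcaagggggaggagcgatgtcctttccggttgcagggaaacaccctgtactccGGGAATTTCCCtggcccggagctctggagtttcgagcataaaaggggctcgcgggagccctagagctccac
Cxcl2: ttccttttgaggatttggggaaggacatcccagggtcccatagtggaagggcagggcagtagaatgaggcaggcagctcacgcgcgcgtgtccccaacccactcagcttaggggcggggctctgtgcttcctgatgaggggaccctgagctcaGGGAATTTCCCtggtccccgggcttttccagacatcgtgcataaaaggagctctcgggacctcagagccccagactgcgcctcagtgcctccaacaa
Cxcl3: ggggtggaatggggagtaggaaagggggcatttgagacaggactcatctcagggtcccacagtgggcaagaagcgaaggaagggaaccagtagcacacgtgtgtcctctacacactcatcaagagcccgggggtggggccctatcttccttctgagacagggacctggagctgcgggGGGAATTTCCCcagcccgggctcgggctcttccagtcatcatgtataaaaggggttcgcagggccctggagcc
Cxcl10: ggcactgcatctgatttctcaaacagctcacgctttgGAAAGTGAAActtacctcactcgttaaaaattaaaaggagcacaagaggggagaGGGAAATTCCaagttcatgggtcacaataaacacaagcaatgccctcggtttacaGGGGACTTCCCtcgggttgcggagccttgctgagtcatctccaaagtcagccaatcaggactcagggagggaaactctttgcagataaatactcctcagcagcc

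Cxcl1, Cxcl2 and Cxcl3 all held the run GGGAATTTCCC, which was found on either strand in 14 of 32851 promoters of the same length (0.0426%). It began 71 bases before the start of Cxcl1, 97 bases before that of Cxcl2 and 73 bases before that of Cxcl3. Cxcl1 and Cxcl2 shared a longer run of 14 bases, GGGAATTTCCCTGG. A promoter was available for 25 of the 34 genes (not for Ccl2, Ccl4, Ccl5, Ccl7, Ccl11, Ccl24, Cxcl5, Cxcl11 and Cxcl16). The kappaB consensus, which this run matches on both strands, was present in 6 of these 25 (Ccl9, Ccl20, Cxcl1, Cxcl2, Cxcl3 and Cxcl10) against 7.25% of all promoters. The interferon-stimulated response element, taken as 2 copies of GAAA with any 2 bases between them on either strand, was present in 3 of 25 (Ccl19, Cxcl10 and Cxcl14) against 2.98% of all. Cxcl10 had both, the latter 213 bases before its start. The AP-1 site TGANTCA was found in 4 of 25 (6.75% of all promoters) and TATAAA in 10 of 25 (12.4%), each on either strand. A match describes letters in this window and does not show that a factor binds there.

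Of the 33 measured genes, 29 had at least 20 UMIs over both libraries, and for 26 of these 29 the class with the highest level was the same in ND and HFD. By summed level of the 33 genes, the leading classes were NK cell-like cells (21275 in ND and 20528 in HFD), basophil and mast cell-like cells (13731 and 14915) and mature neutrophil-like cells (11465 and 11022). Macrophage-like cells followed with 8516 and 7910, whereas B cell-like cells were at 259 and 166. Mature neutrophil-like cells were shallow, with a median of 3267 and 3318 UMIs per cell, but numerous, and held 35.3% of all chemokine ligand UMIs in ND and 39.3% in HFD. For 21 of the 29 genes the level of the leading class was above that of the next class beyond their intervals in both libraries, as the map of levels by class shows. The shares of all genes with the same leading class or with such a separation were not computed. Neither count is therefore read as a trait of the chemokine genes.

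**Figure D1:**
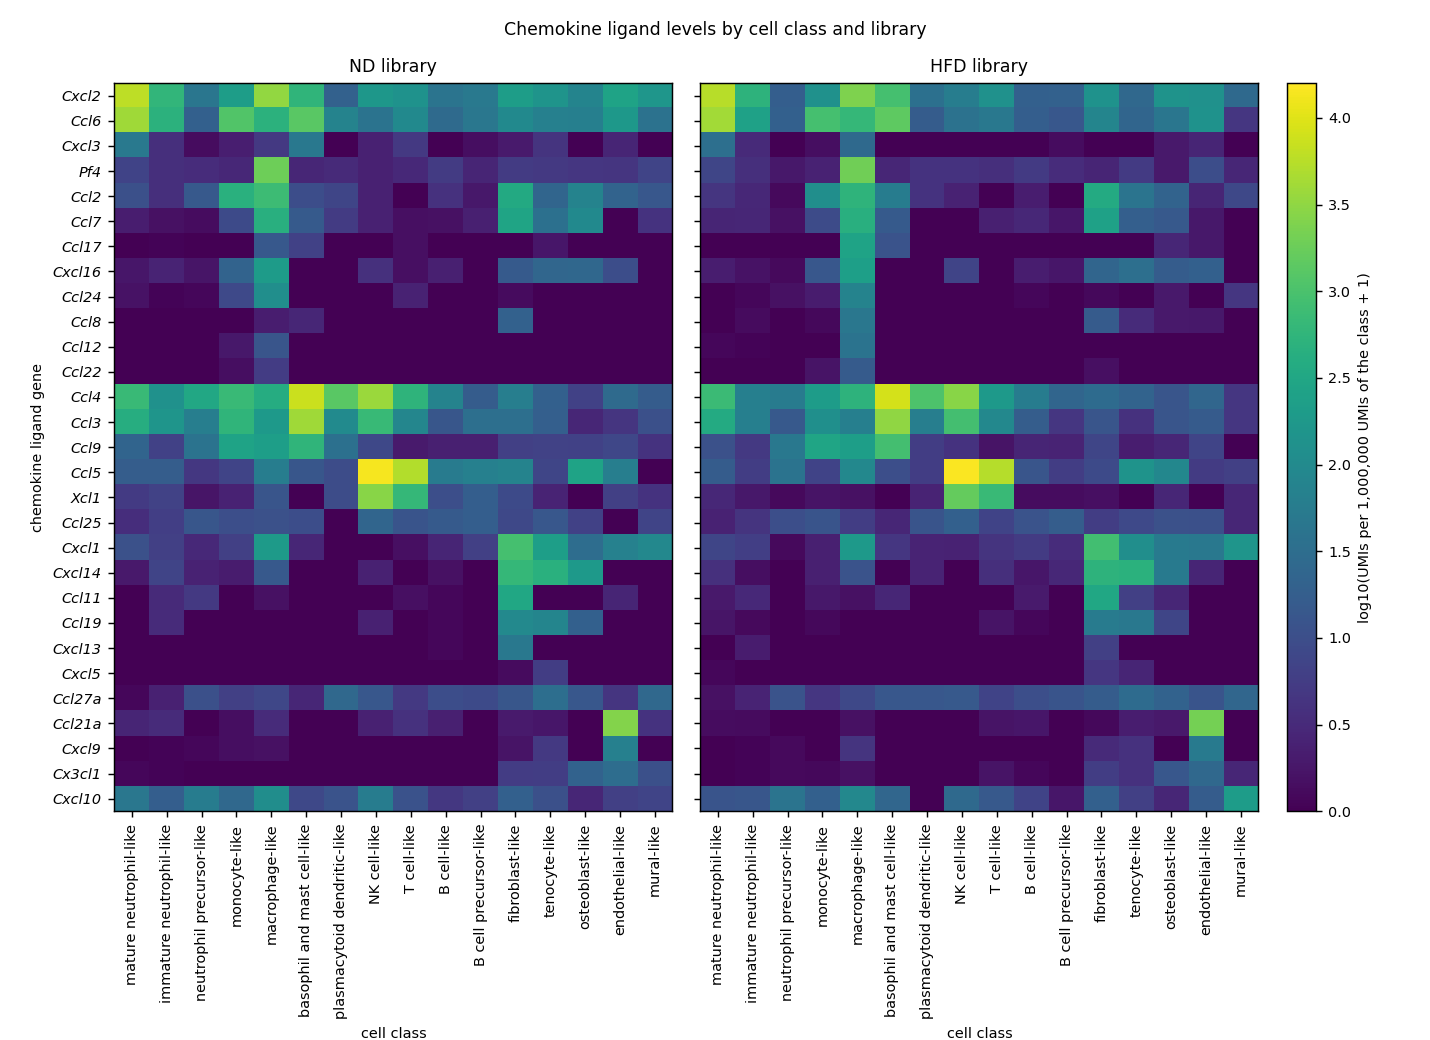
Level of each of the 29 chemokine ligand genes (rows) in 16 cell classes (columns) of the ND library (left) and the HFD library (right). Colour gives log10 of UMIs per 1000000 UMIs of the class plus 1, and genes are ordered by the class in which they were highest in HFD. Blocks of bright cells mark neutrophil, macrophage, NK and T cell, fibroblast and endothelial genes, while Cxcl2, Ccl6, Ccl3 and Ccl4 extend over many classes.

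Mature neutrophil-like cells carried Cxcl2, a ligand of Cxcr2 that attracts neutrophils, and Ccl6, a CC chemokine of myeloid cells. The level of Cxcl2 was 6150 (interval 6083 to 6218) in ND and 5654 (5590 to 5719) in HFD, above the next class, macrophage-like cells, at 3350 and 2404. A Cxcl2 UMI was found in 88.4% of ND and 89.4% of HFD mature neutrophil-like cells, against 5.78% and 5.57% of B cell-like cells, which have a similar depth (median 3786 and 3667 UMIs) and should lack the gene. The level of Ccl6 was 4035 in ND and 4174 in HFD, and 96.4% and 97.4% of the cells had a UMI, against 4.59% and 4.10% of B cell-like cells. Both genes were thus far above the background of the droplets in this class. Cxcl3, a close relative of Cxcl2, was far less abundant, with 49.0 in ND and 33.6 in HFD. For Cxcl3 the interval overlapped that of the next class in each library (basophil and mast cell-like cells in ND, where all 26 UMIs came from 1 cell, and macrophage-like cells in HFD).

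Within the class, Cxcl2 and Ccl6 had different distributions over the 4 mature neutrophil-like clusters. Cxcl2 was highest in cluster C1, whose leading genes included Il1r2, Il1b and Acod1, with 9765 in ND and 7737 in HFD, and lowest in cluster C10, with 2121 and 3141. Ccl6 was highest in cluster C2, with 5380 and 5321, and stood at 3174 and 3272 in C1. Ccl3 and Ccl4, attractants of monocytes and lymphocytes, were present in fewer of these cells, and they occurred together. A Ccl4 UMI was found in 42.9% of the ND cells that had a Ccl3 UMI and in 23.9% of those without, and in 42.4% and 22.3% in HFD. Depth did not run the same way, as the cells with Ccl3 had a median of 3058 UMIs in ND and 3222 in HFD and those without 3455 and 3401.

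Basophil and mast cell-like cells, with only 49 ND and 53 HFD cells, had the highest levels of 3 CC genes. Ccl4 reached 7194 (6973 to 7420) in ND and 8347 (8108 to 8591) in HFD, Ccl3 reached 3991 and 3174, and Ccl9, a ligand of Ccr1, reached 551 and 869. Each was above the next class beyond its interval in both libraries. The signal was spread over the class, as Ccl4 was detected in 44 of 49 and 47 of 53 cells, and the cell with the most Ccl4 UMIs held 12.3% and 10.2% of them. Although few, these cells accounted for 20.3% and 31.6% of the Ccl4 UMIs of the 16 ranked classes. They held 4020 and 4612 Ccl4 UMIs, beside 3580 and 3846 in mature neutrophil-like cells.

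NK cell-like cells were set apart by Ccl5, a chemokine that is stored by cytotoxic lymphocytes, and by Xcl1, which attracts cross-presenting dendritic cells through Xcr1. The level of Ccl5 was 13750 (13479 to 14026) in ND and 14998 (14699 to 15301) in HFD, and every one of the 129 and 108 cells had a UMI. T cell-like cells had 5219 and 5449. Xcl1 was at 2803 and 1598 in NK cell-like cells and at 622 and 698 in T cell-like cells. Among T cell-like cells, Xcl1 was nearly limited to cells with Ccl5, in 65.7% of those in ND and 66.7% in HFD against 4.35% and 1.37% of cells without Ccl5. The Ccl5 cells were deeper, with a median of 7055 and 8135 UMIs against 5787 and 5633. NK cell-like cells were second in Ccl4 (3731 and 2867) and Ccl3 (677 and 894).

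Macrophage-like cells (138 in ND and 148 in HFD) were the leading class of the largest number of genes. Pf4, platelet factor 4, known from megakaryocytes and platelets, was at 1879 (1815 to 1944) and 1983 (1919 to 2048), and the class held 95.9% and 96.4% of the Pf4 UMIs of the ranked classes. In the cells with Pf4, the macrophage marker C1qa was detected in 90 of 94 ND and 87 of 89 HFD cells, and the megakaryocyte marker Itga2b in 1 cell of each. A further 1122 ND and 1791 HFD Pf4 UMIs lay in the unnamed cells, in 25 and 19 cells, 553 and 1272 of them in 1 cell that also had Itga2b and Gp9. Among these unnamed cells with Pf4, Itga2b was found in 10 of 25 and 6 of 19. Ccl2 and Ccl7, ligands of Ccr2 that draw monocytes, were at 763 and 534 and at 452 and 448. They occurred in the same cells, as Ccl7 was found in 58.0% of the ND macrophage-like cells with Ccl2 and in 18.8% of those without, and in 49.3% and 5.20% in HFD. The macrophage-like cell with the most Ccl2 held 35.46% of its UMIs in ND and 23.98% in HFD. Cxcl16, a membrane-bound ligand of Cxcr6, was at 201 and 234, and Ccl24, a ligand of the eosinophil receptor Ccr3, at 118 and 75.1. Cxcl16 was spread evenly, with 96 of 138 and 108 of 148 cells and at most 6.05% of its UMIs in 1 cell. Ccl12, Ccl17 and Ccl22 were also highest in this class but came from 9 or fewer cells in each library, and are given with the diets.

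The stromal cells of the periosteum had a set of their own. In fibroblast-like cells (241 in ND and 378 in HFD) Cxcl1, a neutrophil attractant, was at 919 (885 to 954) and 832 (805 to 860) and was found in 139 and 206 cells. Cxcl14, a constitutive chemokine, was at 615 and 526 and extended to tenocyte-like cells at 459 and 472. Of the Ccl11 (eotaxin) UMIs of the ranked classes, fibroblast-like cells held 95.1% and 96.3%, at 315 and 319, and the next ranked class stood at 3.99 and 5.27. A further 211 ND and 9 HFD Ccl11 UMIs lay in the unnamed cells, in 3 and 7 cells. Ccl2 and Ccl7 had another source here, at 348 and 368 and at 282 and 251. Ccl2 was also at 460 in ND and 116 in HFD monocyte-like cells, with 2173 and 519 UMIs. The fibroblast-like cells with Ccl2 were deeper (median 13036 and 15030 UMIs against 10042 and 9362). Ccl2 and Ccl7 again shared cells, as Ccl7 was in 56.3% and 51.3% of those cells, against 20.2% and 19.2% of those without Ccl2. Ccl11 and Ccl2 showed less of this, with Ccl2 in 24.7% and 21.6% of the cells with Ccl11 and in 17.7% and 19.3% of those without.

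Genes of lymphoid tissue were seen in the stromal and vascular cells as well. Ccl19, a ligand of Ccr7, was at 94.9 and 55.4 in fibroblast-like and at 80.0 and 47.4 in tenocyte-like cells, and the intervals of these classes overlapped. Cxcl13, the B cell attractant that binds Cxcr5, was present in 7 ND and 8 HFD fibroblast-like cells, all of which had the fibroblast marker Pdgfra. Ccl21a, the second Ccr7 ligand, had a level of 2659 (2527 to 2795) in ND and 2109 (2025 to 2195) in HFD endothelial-like cells, but it came from 6 of 117 and 8 of 233 cells. These few cells had Mmrn1 in 6 of 6 and 7 of 8, Lyve1 in 5 of 6 and 7 of 8 and Prox1 in 3 of 6 and 8 of 8, markers of lymphatic endothelium, each of which was found in at most 1.80% of the other endothelial-like cells. These co-expressed genes were chosen after the Ccl21a values were seen. Ccl19, Ccl21a and Ccl27a have near-identical copies in the mouse genome, so that their counts are uncertain. Cxcl9, an interferon-induced ligand of Cxcr3, was also highest in endothelial-like cells, at 67.6 and 53.1 (17 and 34 cells), and Cx3cl1, the membrane-bound ligand of Cx3cr1, at 31.2 and 24.8, where osteoblast-like cells overlapped with it.

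For 3 genes the leading class differed between the libraries. Cxcl10, a ligand of Cxcr3 like Cxcl9, was highest in macrophage-like cells in ND (115, next 56.6 in neutrophil precursor-like cells) and in mural-like cells in HFD (208). Mural-like cells had 2 Cxcl10 UMIs in 1 of 31 ND cells and 117 in 6 of 59 HFD cells, and the cell with the most held 59 of these. Ccl8 was highest in fibroblast-like cells in ND (19.0) and macrophage-like cells in HFD (44.6), and Cxcl5 was near its limit of detection, at 4.85 in ND tenocyte-like and 3.58 in HFD fibroblast-like cells. Ccl25 was low in all classes, at most 22.6 and 18.7 (NK cell-like), and Ccl27a at most 32.3 and 28.7 (tenocyte-like), without separation from the next class. The remaining 4 genes had fewer than 20 UMIs. Ccl20 had 12 HFD UMIs, all in 1 basophil and mast cell-like cell, Ppbp had 8 HFD UMIs, Ccl28 had 1, and Cxcl15 had none. In ND all 4 were at 0, which allows up to 3 UMIs each.

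Neighbouring genes were not read from the same cells throughout. In GRCm38.p6 the run of 7 genes from Cxcl5 to Cxcl2 on chromosome 5 (90759298 to 90905938, 147 kb) contains Pf4 of macrophage-like, Cxcl1 of fibroblast-like and Cxcl2 and Cxcl3 of mature neutrophil-like cells. On chromosome 11, Ccl2, Ccl7, Ccl11, Ccl12 and Ccl8 lie within 81.2 kb and were led by macrophage-like or fibroblast-like cells. Ccl2 was also at 460 in ND and 116 in HFD monocyte-like cells. Ccl5, Ccl9, Ccl6, Ccl3 and Ccl4 lie within 139 kb on the same chromosome and were led by NK cell-like, mature neutrophil-like and basophil and mast cell-like cells. Ccl22, Cx3cl1 and Ccl17 lie within 66.4 kb on chromosome 8.

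The levels differed in how many cells they came from. For Ccl6 in mature neutrophil-like cells, Ccl5 in T and NK cell-like cells and Pf4 in macrophage-like cells, the cell with the most UMIs held a small part of the total (for Pf4, 6.04% in ND and 4.75% in HFD). For Ccl17 in macrophage-like cells it held 91.7% and 86.1%, and for Ccl5 in HFD tenocyte-like cells 240 of 246 UMIs. That tenocyte-like cell also held 74 UMIs of Gzma, a granule protease of cytotoxic lymphocytes, which 2 of the other 156 cells without Ccl5 had at all.

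**Figure D2:**
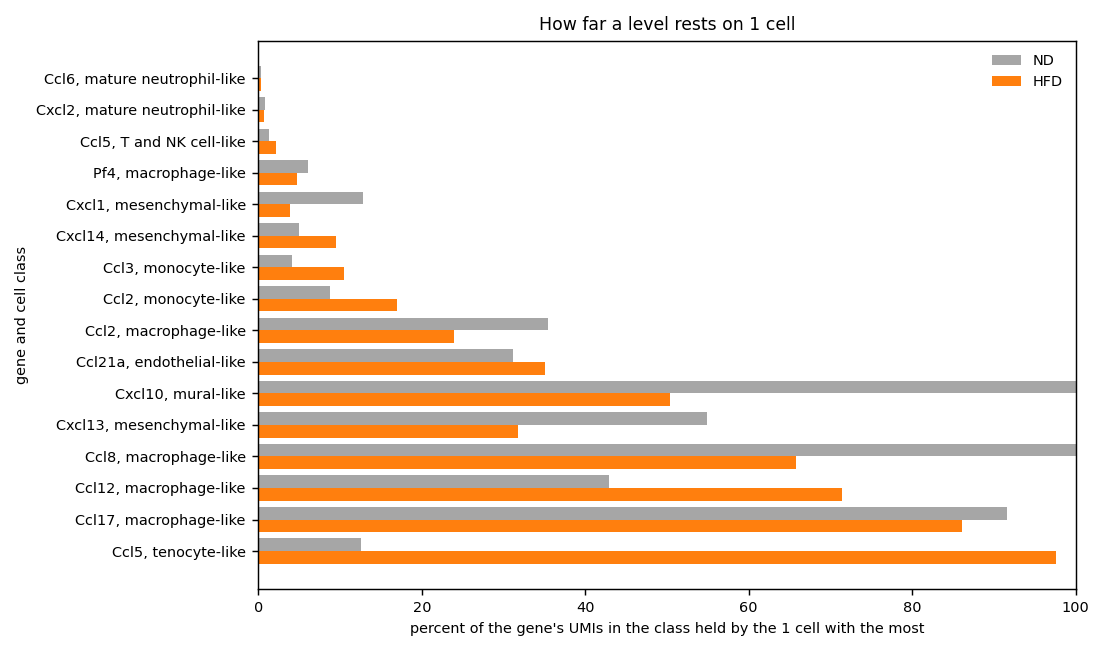
Percent of a gene's UMIs in a cell class that were held by the 1 cell with the most (x axis) for 16 pairs of gene and class (y axis) in the ND library (grey) and the HFD library (orange). Ccl6, Cxcl2, Ccl5 of T and NK cell-like cells and Pf4 have short bars, whereas Ccl17, Ccl12 and Ccl8 of macrophage-like cells rest on 1 cell for more than 50% of their HFD UMIs.

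The diets were compared as the log2 ratio of the HFD over the ND level within a class, for genes with at least 20 UMIs over both libraries there. A ratio of 2-fold or more was counted as higher or lower. Because each diet is 1 library, diet, pool and handling cannot be told apart. Over all kept cells, 3 of 29 genes were higher in HFD, against 3.88% of all 15992 genes, and 1 was lower, against 1.31%. The median log2 ratio of the 29 genes was 0.05, beside 0.03 for all genes, and the numbers on either side of 0 were 15 and 14. The median turned to -0.20 with each class given the same weight, to -0.17 without the cells with the top 5% of doublet scores and to -0.14 with cells thinned to 1000 UMIs. Higher were Ccl17 (39 UMIs in ND and 517 in HFD, log2 ratio 3.67), Ccl12 (25 and 72, 1.47) and Ccl8 (62 and 172, 1.43), and lower was Cxcl13 (143 and 35, -2.05). The call of Ccl12 ended without the cell with the most UMIs in each library (0.41), and its direction turned without the top doublet scores (-0.32). The 3 most abundant genes differed by less, with -0.20 for Cxcl2, -0.15 for Ccl6 and -0.26 for Ccl5.

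In monocyte-like cells (360 in ND and 327 in HFD) 5 of 14 genes were lower in HFD, against 2.54% of all genes, and 0 of 14 higher, against 0.845%, with a median of -0.61 beside 0.05 for all genes. Without the clusters with over 70% ND cells, which here leaves out 1 of the 3 clusters (C27, an alternative chosen after seeing the data), the median was -0.097. There 5 genes were lower and 1 higher, and the share of all genes is not given for this alternative. Ccl3 went from 2679 UMIs (567 per 1000000) in ND to 552 (123) in HFD, a log2 ratio of -2.20 (-2.34 to -2.07). Ccl2 went from 2173 UMIs (460) to 519 (116), a ratio of -1.99, and Ccl4 from 3277 (694) to 938 (210), a ratio of -1.73. The UMIs came from many cells but unevenly, with Ccl3 in 187 ND and 129 HFD cells, Ccl2 in 159 and 127 and Ccl4 in 139 and 69. The 5 cells with the most held 17.73% and 32.25% of the Ccl3 UMIs in ND and HFD. These shares were 32.03% and 42.58% for Ccl2 and 27.28% and 48.4% for Ccl4. Ccl24 (-2.61) and Cxcl1 (-1.90) were also lower, but 31 of 35 and 23 of 25 ND UMIs came from 1 cell, and without that cell neither was lower in HFD. Ccl6, the most abundant gene of the class, was at 1158 and 904 (-0.36), and Ccl9 was at 271 and 289 (0.09).

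The 3 monocyte-like clusters were not equally represented in the libraries. Cluster C27, led by Ccr2, Ms4a6c, Hmox1 and Hspa1a, had 113 ND and 36 HFD cells and the highest levels, with Ccl3 at 1503 and 758, Ccl2 at 1147 and 841 and Ccl4 at 1751 and 1225. Cluster C25, led by cycling genes such as Ube2c and Birc5, had 82 and 77 cells and the widest gap as a ratio for these 3 genes, with Ccl3 at 386 and 73.8, Ccl2 at 353 and 30.3 and Ccl4 at 610 and 173. The largest cluster, C11, with 165 and 214 cells, had Ccl3 at 107 and 77.1, Ccl2 at 96.0 and 85.6 and Ccl4 at 52.3 and 102. Thus Ccl3 had a lower level in HFD in all 3 clusters and Ccl4 in C25 and C27 but not in C11. Ccl2 was lower in C25 and C27 and close between the diets in C11. Intervals are not given for the levels of single clusters. When the clusters were given the same weight in both libraries, the log2 ratios were -0.97 for Ccl2, -1.24 for Ccl3 and -0.80 for Ccl4, so that only Ccl3 of these stayed beyond 2-fold.

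A list of 20 dissociation and immediate-early genes, such as Fos, Jun and Hspa1a, moved in the same direction. In monocyte-like cells its summed level was 20749 in ND and 9523 in HFD, and 9 of its 20 genes were lower by 2-fold or more (2.54% of all genes). By cluster it was 8193 and 6424 in C11, 13024 and 7059 in C25 and 50280 and 47110 in C27. All 12 measured genes of an interferon-stimulated list were higher, from 384 to 630 summed, 4 of them by 2-fold or more (0.845% of all genes). The part of either list in the chemokine values was not tested.

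**Figure D3:**
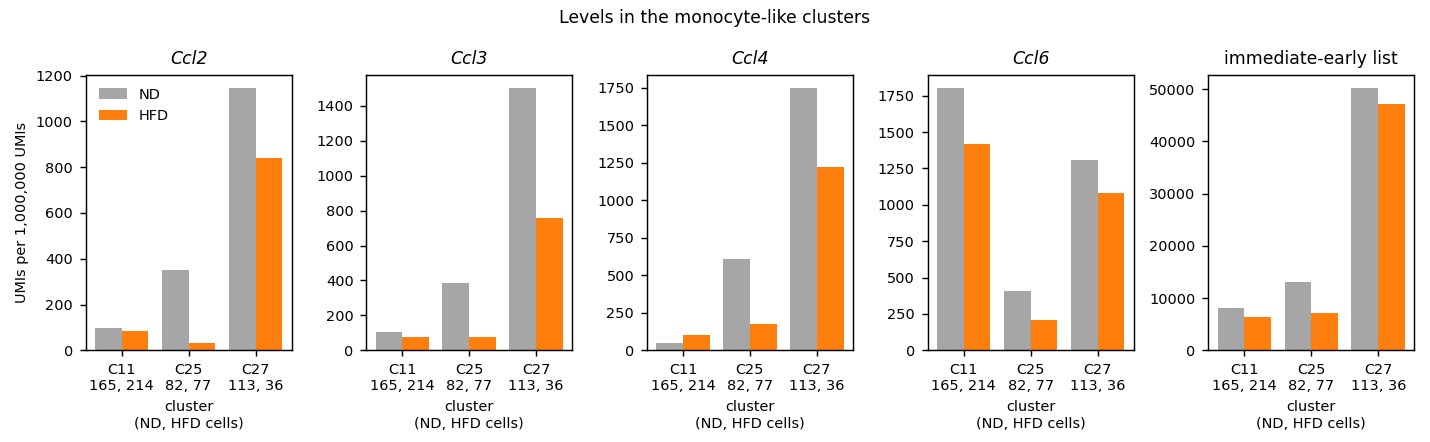
Levels of Ccl2, Ccl3, Ccl4, Ccl6 and of the summed immediate-early list (UMIs per 1000000, y axes from 0) in the 3 monocyte-like clusters, with ND in grey, HFD in orange and the number of cells in each under the cluster name. Ccl2, Ccl3 and Ccl4 are highest in C27, which has 113 ND and 36 HFD cells, and the HFD bars of these 3 genes are lowest relative to ND in C25.

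In mature neutrophil-like cells (1453 in ND and 1464 in HFD), 4 of 14 genes were lower in HFD, against 2.08% of all genes, and 1 higher, against 1.89%, and the median was -0.36 beside -0.04. The 3 most abundant genes were close between the diets: Cxcl2 had a log2 ratio of -0.12, Ccl6 of 0.05 and Ccl4 of 0.07. Cxcl10 was lower, with 232 UMIs in 70 ND cells and 61 in 35 HFD cells, a ratio of -1.96 (-2.39 to -1.55). The ND cell with the most held 68 of the 232, and without the top cell of each library the levels were 31.75 and 9.82. By cluster, Cxcl10 was at 33.6 and 7.36 in C0, 110 and 31.5 in C1 and 25.2 and 3.47 in C10, but nearly equal in C2 (7.76 and 7.14). Ccl2 (49 and 18 UMIs, -1.46), Ccl9 (112 and 54, -1.08) and Xcl1 (22 and 10, -1.14) were lower from few UMIs, and Cxcl14 was higher with 5 and 15 UMIs (1.46). The summed immediate-early list was at 12350 and 10176 and the interferon-stimulated list at 793 and 875.

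Immature neutrophil-like cells had 9 of 20 genes lower (3.92% of all genes) and 1 higher (1.69%), and a median of -0.57 beside -0.09. Ccl6 went from 5464 to 2919 UMIs (-1.01), Ccl3 from 1706 to 747 (-1.30) and Ccl4 from 1432 to 749 (-1.04), while Cxcl2 was at 6402 and 6106 (-0.18). Of the 9 lower genes, 5 had 50% or more of their ND UMIs in 1 cell (Ccl19 25 of 25, Cxcl14 64 of 68, Ccl21a 20 of 25, Xcl1 43 of 62 and Cxcl16 9 of 18). Without the top cell of each library Ccl19 was at 0 in both and Cxcl14 at 0.37 and 0.26. Over the class the summed immediate-early list was at 8533 in ND and 3409 in HFD. All 20 of its genes were lower, 13 of them by 2-fold or more (3.92% of all genes). Ccl3, Ccl6 and Cxcl2 were highest in cluster C12, which had 314 ND and 57 HFD cells and a summed immediate-early level of 25885 and 26052. Within C12 the direction was the opposite: Ccl6 was at 2091 in ND and 3623 in HFD, Ccl3 at 632 and 1413 and Cxcl2 at 2113 and 6371. The C12 cells of the libraries also differed in depth, with a median of 4700 UMIs in ND and 3197 in HFD. In HFD mature neutrophil-like cells the median was 3318 UMIs, with Ccl6 at 4174 and Cxcl2 at 5654. The leading genes of C12 included Retnlg and Mmp8, markers of mature neutrophils. Whether C12 holds the same kind of cell in both libraries was not tested. Ccl3 was also higher in HFD in clusters C7 (49.4 and 68.9) and C22 (54.3 and 89.1), and lower in C8 (84.1 and 27.9) and C21 (43.1 and 14.7). Ccl6 was at 228 and 312 in C7, 66.9 and 33.1 in C8, 15.6 and 14.0 in C21 and 1247 and 1155 in C22. Cxcl2, close between the diets over the whole class, was higher in HFD within every cluster. It was at 578 and 802 in C7, 91.2 and 115 in C8, 47.15 and 73.65 in C21 and 1236 and 1836 in C22. The part of the cluster sizes in the class ratios was not tested.

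In macrophage-like cells 5 of 22 genes were higher in HFD, against 2.37% of all genes, and 3 were lower, against 2.69%, and the median was 0.02 beside -0.03. Of the 3 genes with the highest levels over both libraries, Cxcl2 was at 3350 and 2404 (-0.48), Pf4 at 1879 and 1983 (0.08) and Ccl2 at 763 and 534 (-0.52). For Ccl2, 1 cell held 479 of the 1351 ND UMIs and 1 cell 235 of the 980 HFD UMIs. Without these cells its levels were 492.4 and 405.6. Ccl6 was below Ccl2 in ND and above it in HFD, at 500 and 637. Ccl17, a ligand of Ccr4 made by dendritic cells and some macrophages, had 24 UMIs in 3 ND cells and 504 UMIs in 9 HFD cells, a log2 ratio of 4.31 (3.75 to 4.99), and 434 of the 504 came from 1 cell. Without the top cell of each library the levels were 1.13 and 38.1, so that the gap did not rest on that cell alone. The 9 HFD cells went against the name of the class, as C1qa was found in 1 of 9 (69.1% of the other cells) and C1qb in 2 (71.2%). Cd209a was found in 8 (14.4% of the other cells), Itgax in 7 (7.91%), Mgl2 in 8 (28.1%) and Cd74 in 9 (67.6%). Fscn1, another dendritic cell marker, was found in only 1 of the 9 (0% of the other cells). Ccl22, which shares Ccr4 with Ccl17, had 8 and 28 UMIs (1.69), 20 of the 28 in a cell with 57 UMIs of Fscn1 and 21 of Ccr7, known from migrating dendritic cells.

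Ccl8 and Ccl12, ligands of monocyte receptors, were higher in cells that did carry macrophage markers. Ccl8 had 2 UMIs in 1 ND cell and 82 UMIs in 9 HFD cells, a ratio of 31.8-fold (log2 4.99, counting interval 3.41 to 8.38), with 54 of the 82 in 1 cell. All 9 cells had C1qa, Mrc1 and Pf4, 7 had Ccl7 and 4 had Ccl12. Ccl12 had 21 UMIs in 4 ND and 70 in 9 HFD cells (1.66), 50 of the 70 in 1 cell. When the 5% of cells with the highest doublet scores were left out, the ratio of Ccl12 was -0.21 and that of Ccl22 was 0.78, and without the top cell of each library that of Ccl12 was 0.66. Cxcl3 was higher as well (7 and 49 UMIs, 2.67), with 33 of the 49 UMIs in 1 of 8 cells. Ccl3 was lower, with 312 UMIs in 52 cells and 117 in 35 cells (-1.46), and the cell with the most held 13.1% and 13.7%. Xcl1 was lower by 21 UMIs against 1, 18 of the 21 in 1 cell (-3.89, -9.82 to -1.81), and the third of the lower genes, Ccl25, named here after its value was seen, had 18 and 9 UMIs and an interval that included equality. Xcl1 also went from 50 to 2 UMIs in B cell-like cells, a class that should not express it, with 30 of the 50 in 1 cell.

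T and NK cell-like cells as 1 class had 0 of 9 genes beyond 2-fold in either direction, where 1.38% of all genes were higher and 1.62% lower, and their median was -0.35 beside 0.04. Ccl5 was at 7470 and 8301 (0.15), Ccl4 at 1380 and 989 (-0.48) and Xcl1 at 1197 and 967 (-0.31). Taken apart, T cell-like cells had 2 of 8 genes lower (2.83% of all genes). These were Ccl4, from 538 to 189 (-1.50, -1.70 to -1.32), and Ccl6, from 98.6 to 47.2 (-1.06). Ccl6 was found in 28 of 284 ND and 24 of 202 HFD cells. The 5 cells with the most held 63.6% and 71.8% of its UMIs. Ccl4 was lower in both T cell-like clusters, at 353 and 162 in C15 and at 858 and 316 in C28. NK cell-like cells also had 2 of 8 lower (1.95%), Cxcl2 from 117 to 38 UMIs, of which 111 of the ND UMIs were in 1 cell, and Cxcl10 from 40 to 17. Cxcl10 was found in 15 ND and 6 HFD cells, and the 5 with the most held 65% and 94.1% of its UMIs. Xcl1 of NK cell-like cells had a ratio of -0.81 (-0.92 to -0.70), below 2-fold, and was present in 108 of 129 ND and 81 of 108 HFD cells. The immediate-early list was at 15872 in ND and 11426 in HFD T and NK cell-like cells.

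**Figure D4:**
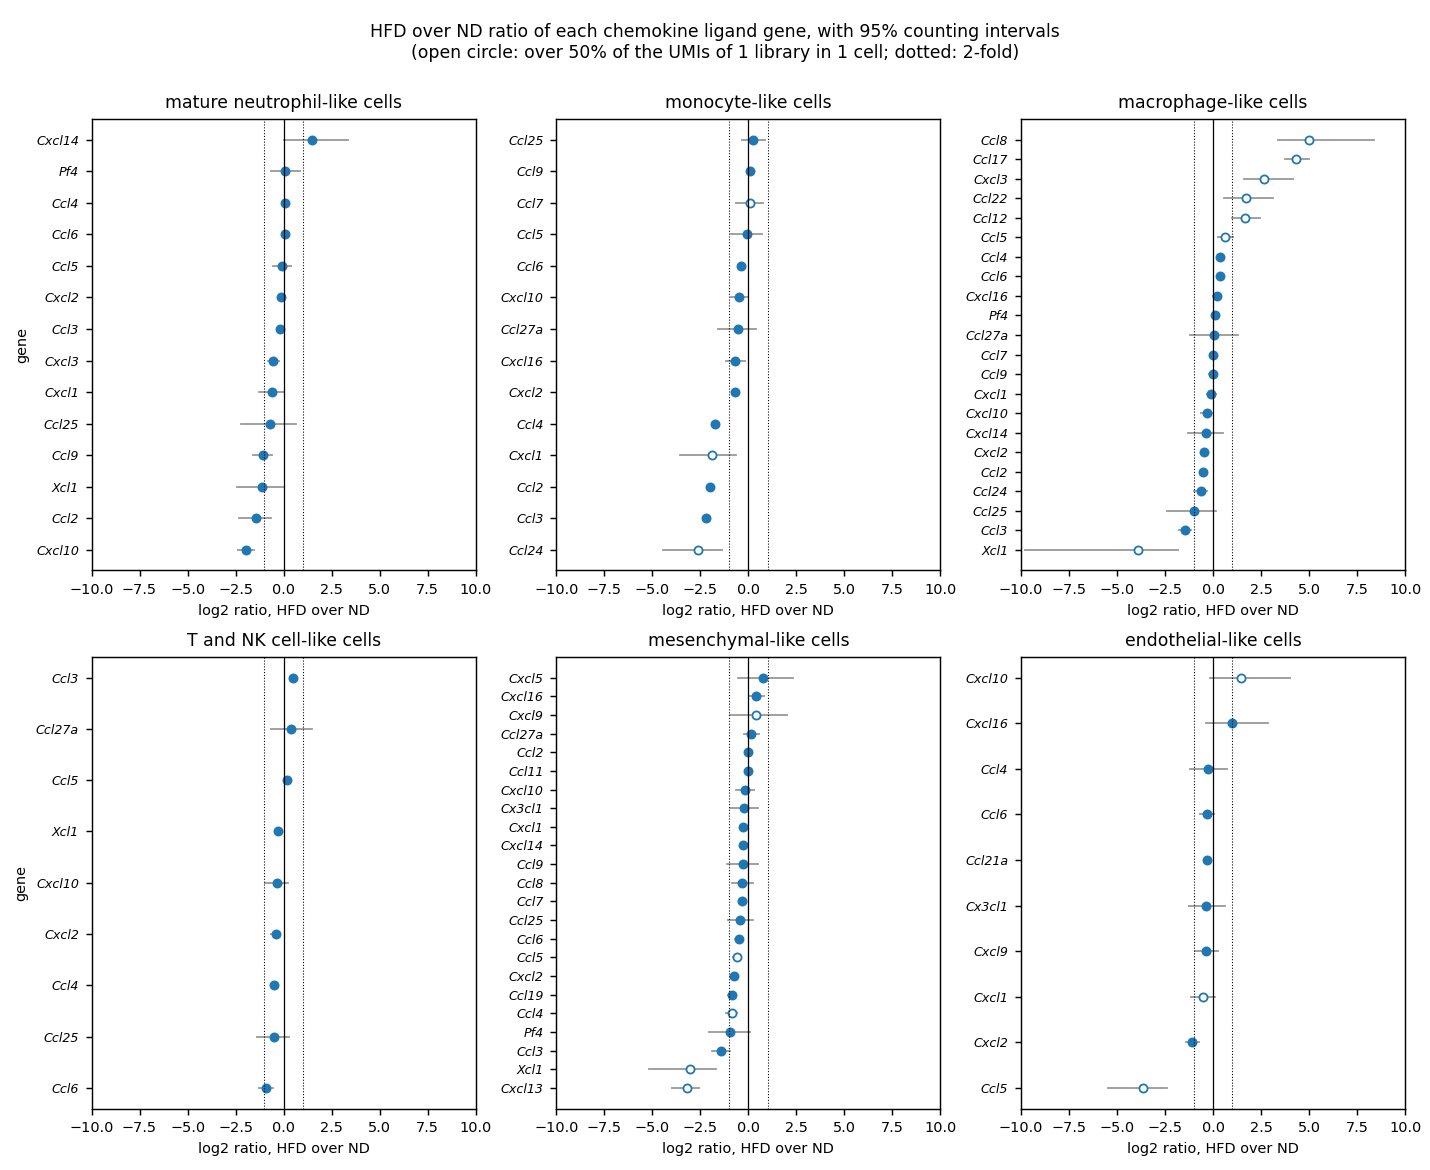
Log2 ratio of the HFD over the ND level (x axis) of each chemokine ligand gene (y axis) in 6 cell classes, with 95% counting intervals as grey lines. Open circles mark genes with more than 50% of the UMIs of a library in 1 cell, and dotted lines mark 2-fold. The filled circles to the left of 2-fold in monocyte-like cells are Ccl2, Ccl3 and Ccl4, and the far right of macrophage-like cells is held by open circles.

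Mesenchymal-like cells (fibroblast-, tenocyte- and osteoblast-like, 409 in ND and 671 in HFD) had 3 of 23 genes lower, against 2.09% of all genes, and 0 higher, against 2.57%. Their median was -0.32 beside 0.05, and 18 of the 23 ratios were below 0. Over the whole class the leading genes were close. Cxcl1 was at 639 and 535 (-0.26), Cxcl14 at 526 and 439 (-0.26) and Ccl2 at 233 and 233 (0.00). For Ccl2, 1 cell held 175 of the 1111 ND UMIs and 1 cell 430 of the 1631 HFD UMIs. Without these cells its levels were 196 and 171.8. Ccl11 was at 198 and 193 (-0.04). Cxcl13 was lower, with 142 UMIs in 7 ND and 22 UMIs in 8 HFD cells, a ratio of -3.21 (-3.96 to -2.59). The ND cell with the most held 78 of the 142, and without the top cell of each library the ratio was -2.61. Ccl19 was at 82.3 and 45.8 (-0.85, -1.06 to -0.63), below 2-fold, from 105 and 116 cells. The leading genes differed more in the smaller subclasses. In tenocyte-like cells Cxcl1 had a log2 ratio of -0.98, Cxcl14 of 0.04 and Ccl2 of 0.80. In osteoblast-like cells Cxcl1 had 0.66, Cxcl14 -1.86 and Ccl2 -1.79. Of the ND osteoblast-like UMIs, 1 cell held 75 of the 102 of Cxcl14 and 1 cell 18 of the 40 of Ccl2.

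The other lower genes of mesenchymal-like cells are genes of blood cells. Ccl3 had 122 and 67 UMIs (-1.41), 49 of the ND UMIs in 1 cell, and Xcl1 had 25 and 4 UMIs (-3.05), 20 of the ND UMIs in 1 cell. In fibroblast-like cells alone, 6 of 21 genes were lower (2% of all genes), among them Ccl5, from 225 to 33 UMIs (-3.24), with 124 of the ND UMIs in 1 cell. B cell-like cells, which should lack Ccl5, went in the same direction, from 292 to 61 UMIs (-2.17), as did Cxcl2 there, from 213 to 94 (-1.09). In ND, 1 cell held 104 of these Ccl5 UMIs and 1 cell held 69 of these Cxcl2 UMIs. Without the top cell of each library, Ccl5 was at 34.95 and 11.4 and Cxcl2 at 26.8 and 16.5 in B cell-like cells. The part of free RNA and of doublets in these values was not tested. The immediate-early list was lower in mesenchymal-like cells for all 20 genes, at 28013 and 21386 summed, and the interferon-stimulated list was at 119 and 168.

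Endothelial-like cells (117 in ND and 233 in HFD) had 2 of 10 genes lower, against 2.55% of all genes, and 1 higher, against 3.31%, and the median was -0.34 beside 0.01. Ccl21a was at 2659 and 2109 (-0.33), and the share of endothelial-like cells with it was 6 of 117 and 8 of 233. Cxcl2 was at 277 and 131 (-1.08, -1.41 to -0.75) and came from 14 and 25 cells. The 5 cells with the most held 86.9% of these UMIs in ND and 81.1% in HFD. Ccl6 was at 175 and 140 (-0.33), and the 5 cells with the most held 91.1% and 83.5% of its UMIs. Ccl5 had 35 and 5 UMIs (-3.66), 27 of the 35 in 1 cell. Cxcl10 was counted as higher on 3 and 18 UMIs with an interval that included equality (1.43, -0.16 to 4.02), and is named here after its value was seen. Cxcl9, induced by the same signals, was at 67.6 and 53.1 (-0.35, with an interval from -0.95 to 0.27). The interferon-stimulated list went the other way in this class, with all 13 measured genes higher, from 624 to 1230 summed, and the immediate-early list was at 41207 and 24265.

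The receptors of these ligands were read from the same cells, and 20 of a list of 23 receptor genes had at least 20 UMIs. Mature neutrophil-like cells led in Cxcr2 (386 in ND and 385 in HFD), the receptor of Cxcl1, Cxcl2 and Cxcl3, and in Ccr1 (886 and 935), which binds Ccl3, Ccl6 and Ccl9. Thus the class with the most Cxcl2 and Ccl6 also had the most of their receptors, while Cxcl1 of fibroblast-like cells had its receptor in another class. Ccr2, the receptor of Ccl2, Ccl7 and Ccl12, was highest in monocyte-like cells (489 and 486). Ccr7, for Ccl19 and Ccl21a, was highest in B cell-like cells (773 and 650) and next in T cell-like cells (290 and 206), and Cxcr5, for Cxcl13, in B cell-like cells (63.0 and 41.0). Cxcr6 and Cxcr3 were highest in T cell-like cells (78.3 and 67.1, and 48.0 and 39.2), and Cx3cr1 in macrophage-like cells (223 and 127). Ackr3, a scavenging receptor that is paired here with none of the measured ligands, was highest in fibroblast-like cells (575 and 421).

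Over all kept cells, none of the 20 receptor genes differed by 2-fold between the diets (3.88% of all genes were higher and 1.31% lower), and their median was -0.31 beside 0.03 for all genes. In monocyte-like cells 4 of 9 receptor genes were lower by 2-fold or more (2.54% of all genes) and 0 higher (0.845%), while Ccr2 was nearly equal. In mature neutrophil-like cells 1 of 7 was higher (1.89% of all genes) and 0 lower (2.08%). In macrophage-like cells 0 of 7 were higher (2.37%) and 1 lower (2.69%), and in mesenchymal-like cells 2 of 11 were lower (2.09%) and 0 higher (2.57%).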

How the data were processed

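Periosteal cells of 4 ND and 4 HFD mice were profiled by 10x 3′ single-cell RNA sequencing. The authors deposited raw UMI counts, whole numbers per gene and barcode without normalization, as 1 matrix per diet. The submitters' processing notes name Cell Ranger 6.0.1 and mm10. No barcode is assigned to a mouse, so neither sums per mouse nor tests between diets were possible, and p-values were not computed. The libraries held 6314 and 6636 barcodes with 48558889 and 49940976 UMIs. They shared 15 barcode sequences, 14 of which were kept in both.

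Cells were kept as in the study's methods and clustered with Seurat 5.3.0 (sctransform 0.4.2, R 4.3.3): SCTransform with S and G2M scores regressed, 3000 variable genes, 30 principal components and Louvain clustering at resolution 1. Of the variable genes, 38 were left out (chemokine ligands, among them 23 members, Cxcl12 and receptors). Clusters were named from marker lists. At least 3 markers had to be detected at 2-fold or more over the median cluster (after adding 10 UMIs per 1000000), and as many or more markers of another class among the top 10 genes barred a name. These limits were chosen with the clusters in view, and 366 ND and 311 HFD cells stayed unnamed. Classes with fewer than 30 cells in a library were not ranked. Doublets were kept. Scrublet (scanpy 1.11.5) called 9 ND and 23 HFD cells (0.149% and 0.370%), too few to have worked, so the 5% of cells with the highest scores were left out as an alternative.

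Levels were summed UMIs per 1000000 with Poisson intervals, and shares of cells are counts of cells with at least 1 UMI. Log2 ratios used summed UMIs with 0.5 added, and their intervals are exact conditional binomial intervals. Every gene with at least 20 UMIs over both libraries entered the background. The ratio step was tested on simulated data. Genes were named within a class when among its 3 most abundant members, or when beyond 2-fold with an interval that left out equality. Other cell-level genes were named after their values were seen. The members and lists were chosen with earlier results of these data known. Alternatives were a 200-gene filter, thinning to 1000 UMIs, TMM scaling (edgeR 4.0.16), no gene minimum, other clustering features, resolution 0.5 and equal cluster weights. The top doublet scores, clusters with over 70% ND cells and the top cell of each gene were left out in alternatives chosen after seeing the data. Python 3.11.15 was used with scipy 1.17.1, numpy 2.4.6 and matplotlib 3.10.9. Sequences and positions are from RefSeq tables of GRCm38.p6, the assembly that mm10 denotes.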

Additional observations from a re-analysis of the deposited data

How the results depend on the processing

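No paired analysis was possible because the 4 numbered mice of each diet were pooled in 1 matrix. The bounds for a median were the median lower and the median upper end of the counting intervals of its genes. These bounds are wide (-1.05 to 0.18 in endothelial-like cells) and are not an interval of the median itself. Of the recomputed medians and counts of shared leading classes, 76 stayed within these bounds or near the count, and 6 medians moved further. With cells thinned to 1000 UMIs the median was 0.37 in macrophage-like cells, -1.46 in endothelial-like cells (4 genes left) and -0.14 over all kept cells. Over all kept cells it was -0.20 with each class given the same weight and -0.17 without the cells with the top 5% of doublet scores. Without the clusters with over 70% ND cells, an alternative chosen after seeing the data, it was -0.097 in monocyte-like cells, where 5 of 14 genes stayed lower (Ccl2 at -1.86, Ccl3 at -1.70 and Ccl4 at -1.31).

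Of the ratios of named genes over all settings, 384 stayed within their interval, 81 moved and 4 reversed. With no gene minimum all 44 stayed, which was fixed in advance, as the minimum does not enter a gene's own ratio. All 44 also stayed without the doublets called by Scrublet, where few cells were left out. With cells thinned to 1000 UMIs, 24 moved and 19 stayed. Without the top doublet scores Ccl12 was at -0.21 in macrophage-like cells and -0.32 over all kept cells. Without the cell with the most UMIs of each gene, Ccl24 was at 0.077 and Cxcl1 at 1.21 in monocyte-like cells, and the numbers of genes beyond 2-fold were 3 lower in monocyte-like and 3 higher in macrophage-like cells. The lower genes of macrophage-like cells were 1 under thinning and 1 with all variable genes in the clustering. With no gene minimum, where genes with very few UMIs enter, 4 of the monocyte-like genes were higher and 10 lower. The share of all genes beyond 2-fold is not given for the alternatives. The counts of genes under them therefore have no background and are not results about the chemokine genes. The same class led in both libraries for 20 to 26 genes. The cause of these changes was not tested.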
